A study of Mus musculus with 10 samples.

Results

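The endothelin system was followed in the transcriptome of ageing cardiomyocytes (CMs) through 6 genes, namely the ligand genes Edn3 and Edn1, the receptor genes Ednra and Ednrb, and the converting enzyme genes Ece1 and Ece2. They were taken by gene symbol from a table of 37819 features, in which each symbol had 1 row, and all 6 of 6 were among the 12340 features tested. RNA came from CMs of C57BL6J mice without any transgene or treatment, in 5 libraries from old mice (20 months) and 5 libraries from young mice (3 months), and n counts libraries. Hearts had been digested on a Langendorff apparatus, and magnetic beads had then taken out cells bearing CD31, CD45 or SCA1, the surface proteins of endothelial cells, leukocytes and stromal cells. The labels number the libraries within each age but do not say which animal each came from, so the p-values measure the spread between these libraries. The descriptions of the sequencing differ on the number of mice per age, and one gives fewer mice than libraries, so some libraries may share an animal and the p-values may then be too small. All values are FPKM, fragment numbers scaled by transcript length and by sequencing depth, as deposited by the authors. Xist, a transcript of female cells, reached at most 0.00626 FPKM in old and 0.00404 FPKM in young libraries. The Y-linked genes Ddx3y and Eif2s3y had at least 10.8 and 24.4 FPKM in old and 11.5 and 25.8 FPKM in young libraries. All libraries thus had a male pattern, although the authors describe mice of mixed sex.

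Endothelins are small secreted peptides, each held in shape by disulphide bonds, and they are among the strongest known constrictors of blood vessels. A long precursor is cut first by furin-type proteases to big endothelin, which has little activity, and then by an endothelin converting enzyme to the mature peptide. In the heart, the peptides act on the receptors of endothelial cells, smooth muscle, fibroblasts and CMs, and in CMs signalling through the A receptor and Gq proteins is linked to contraction and to hypertrophic growth. The A receptor, encoded by Ednra, binds endothelin-1 much better than endothelin-3, whereas the B receptor, encoded by Ednrb, binds both alike.

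The stretches of the 2 ligand genes that encode the mature peptides are given here because the ligands differed in their behaviour with age while their peptides are close relatives. Both were read 5′ to 3′ from transcripts of the GENCODE annotation of mm9, the build the authors used, and both lie in exon 2 of 5 on the plus strand. The Edn3 stretch lies at chr2:174587250-174587312 and encodes residues 97 to 117 of a precursor of 214 residues. The Edn1 stretch lies at chr13:42399018-42399080 and encodes residues 53 to 73 of a precursor of 202 residues. Capitals mark the bases at which the genes differ.
Edn3: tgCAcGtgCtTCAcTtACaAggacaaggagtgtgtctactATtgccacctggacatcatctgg
Edn1: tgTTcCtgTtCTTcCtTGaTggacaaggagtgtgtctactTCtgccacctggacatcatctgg
The stretches differed at 13 of 63 bases, and the encoded peptides at 6 of 21 residues. Each peptide holds 4 cysteines, and the last 7 residues were the same in endothelin-1, endothelin-2 and endothelin-3. The differing bases lie mainly in the first part of the stretch.

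Of the 6 genes, Edn3 was the only one whose difference between old and young CMs passed the test, and it was higher in old CMs. The test was limma on log2(FPKM + 1) for the 12340 features averaging 1 FPKM or more, with p-values adjusted by Benjamini-Hochberg and a threshold of 0.05. Over all features tested, 1.78% were called, 0.689% as higher and 1.09% as lower in old CMs. This balance turned round with the scaling of the libraries, as 85 features were higher and 135 lower with FPKM as deposited, 93 higher and 25 lower with median-ratio scaling, and 101 higher and 68 lower at the same protein-coding total. Log2 differences are given as old minus young on this scale, which understates the change of genes near 1 FPKM, and their median over all features tested was -0.0578.

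Edn3 encodes endothelin-3, the ligand best known for guiding neural crest cells, the precursors of enteric neurons and pigment cells, through the B receptor. The gene (ENSMUSG00000027524) spans chr2:174586120-174609543 on the plus strand of mm9 and has 4 annotated transcripts, whose fragments the gene-level FPKM combines. Edn3 had 1.95, 2.92, 2.76, 3.26 and 3.87 FPKM in old libraries 1 to 5, against 0.771, 0.471, 0.559, 0.778 and 0.760 FPKM in young libraries 1 to 5. All 5 old libraries lay above all 5 young libraries, and the lowest old library was 2.51 times as high as the highest young one. The mean was 2.95 ± 0.704 FPKM in old CMs and 0.668 ± 0.143 FPKM in young CMs (SD, n = 5 each), a ratio of means of 4.42. The log2 difference was 1.23 (95% interval 0.95 to 1.51, standard error 0.13, limma adjusted p = 0.00145). A two-sided exact permutation test of the mean FPKM gave p = 0.00794, the smallest p that 5 against 5 libraries allow.

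Among 10573 protein-coding genes tested, the Edn3 difference ranked 15th when sorted by the increase in old CMs, and it ranked 61st among all features tested. For comparison, 147 features (1.19%) had all old libraries above all young ones, and 6.91% did not overlap between the ages in either direction. Because the young mean of Edn3 was under 1 FPKM, the gene passed the filter on low values only through the old libraries. Fitted without that filter, its difference was again 1.23, with an adjusted p of 0.00428 from limma. The level remained moderate even in old CMs. Over the libraries of both ages together, Edn3 stood between the 47.3rd and the 67.5th percentile by FPKM. These percentiles are among all protein-coding genes listed, whether detected or not, so they are lower among expressed genes alone. An approximate conversion put Edn3 at 169 to 334 fragments per old library and 46 to 66 fragments per young library. In these purified but still mixed bulk samples, fewer cells of a type and less RNA per cell cannot be told apart.

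Edn1 encodes endothelin-1, the main endothelin of blood vessels, made mostly by endothelial cells. The gene (ENSMUSG00000021367) spans chr13:42396639-42403358 on the plus strand and has 1 annotated transcript. Edn1 had 1.53, 1.24, 0.886, 0.765 and 1.58 FPKM in old libraries 1 to 5, against 1.17, 0.752, 1.31, 1.19 and 0.873 FPKM in young libraries 1 to 5. The ranges of the ages overlapped, with 2 of 5 old libraries above all young ones. The mean was 1.20 ± 0.367 FPKM in old CMs and 1.06 ± 0.235 FPKM in young CMs (SD, n = 5 each), a log2 difference of 0.09 (95% interval -0.21 to 0.38, standard error 0.13, limma adjusted p = 0.772; exact permutation p = 0.516). With about 43 to 102 fragments per old library and 55 to 83 per young library, Edn1 was the member with the fewest fragments in old CMs. Differences inside the 95% interval remain compatible with these libraries, and no detection limit was computed.

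The balance between the ligands therefore differed by age in every library. Edn3 exceeded Edn1 in 5 of 5 old libraries, by a factor of 1.28 at the lowest, 2.46 at the median and 4.26 at the highest. In young libraries the ratio of Edn3 to Edn1 was 0.427 at the lowest, 0.654 at the median and 0.871 at the highest, so Edn1 was the higher one in 5 of 5. The ligand sum was taken over Edn1, Edn3 and also Edn2. As a share of this summed FPKM, which is a share per transcript length, Edn3 made up 55.7% to 81.0% in old CMs and 29.9% to 45.8% in young CMs. The ligand sum was 3.50 to 5.48 FPKM in old CMs and 1.22 to 1.97 FPKM in young CMs. Edn2, which encodes endothelin-2 and is named after its values were seen, was listed at 0 in 7 of 10 libraries and reached at most 0.0259 FPKM in old CMs and 0.0262 FPKM in young CMs.

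**Figure D1:**
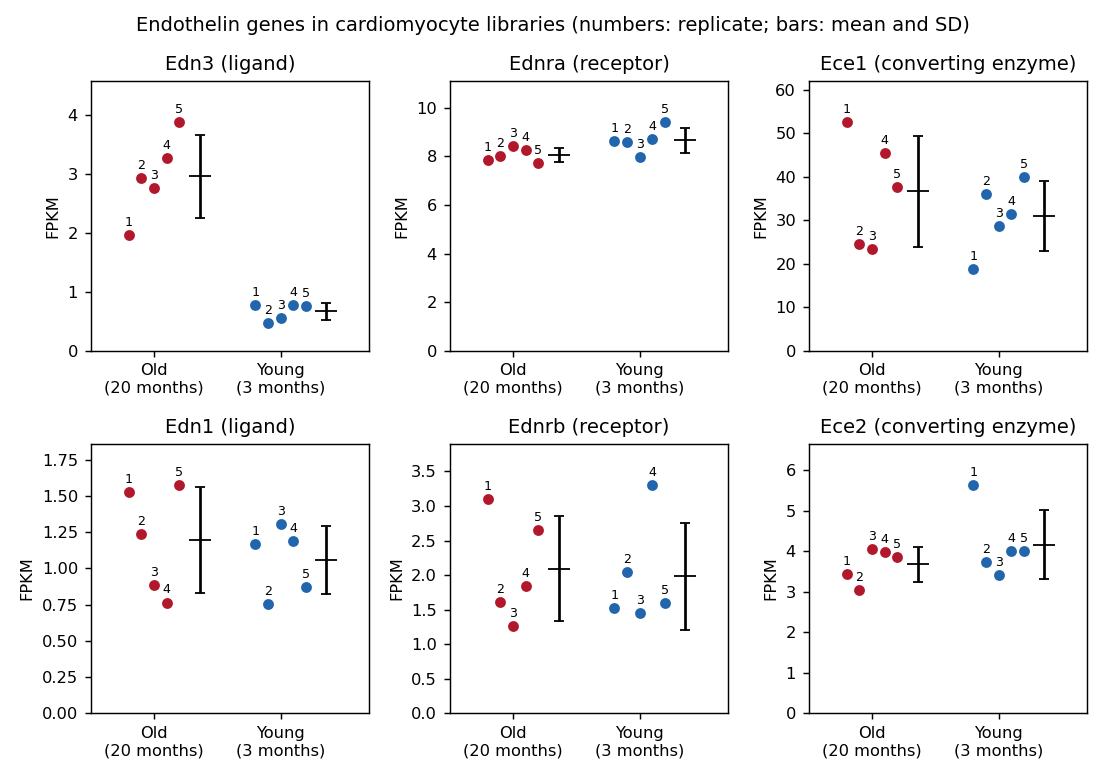
FPKM of each of the 6 genes (y axis, from 0, a separate scale for each panel) in old (20 months, red) and young (3 months, blue) CM libraries; each point is 1 library with its replicate number, and the bars are the mean and SD (n = 5 each). The Edn3 points of old CMs, 1.95 to 3.87 FPKM, all lie above those of young CMs, 0.471 to 0.778 FPKM, while the points of the other 5 genes overlap between the ages.

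Ednra encodes the A receptor, the main endothelin receptor of CMs. The gene (ENSMUSG00000031616) spans chr8:80186930-80248363 on the minus strand. Ednra had 7.83, 8.0, 8.43, 8.26 and 7.72 FPKM in old libraries 1 to 5, against 8.62, 8.57, 7.97, 8.73 and 9.41 FPKM in young libraries 1 to 5. Old CMs were slightly lower on average, but young library 3 lay within the range of the old libraries. The mean was 8.05 ± 0.294 FPKM in old CMs and 8.66 ± 0.511 FPKM in young CMs (SD, n = 5 each), a log2 difference of -0.09 (95% interval -0.20 to 0.01, standard error 0.05, limma adjusted p = 0.287). The exact permutation test of this gene alone gave p = 0.0476, which is not adjusted for the 6 genes compared, and the log2 difference was -0.05 once libraries had been scaled by median ratios. Ednra varied least of the 6 genes between libraries, with a coefficient of variation of 3.66% in old CMs and 5.90% in young CMs. A long non-coding RNA, 4933431K23Rik, overlaps Ednra on the opposite strand and reached at most 1.56 FPKM in old CMs and 1.39 FPKM in young CMs. Whether counting used the strand is not given in the sources used here, so reads of overlapping genes may not have been told apart.

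Ednrb encodes the B receptor, which in endothelial cells is linked to release of nitric oxide and to removal of endothelin from the blood. The gene (ENSMUSG00000022122) spans chr14:104213842-104243390 on the minus strand. Ednrb had 3.11, 1.61, 1.27, 1.85 and 2.65 FPKM in old libraries 1 to 5, against 1.52, 2.05, 1.45, 3.30 and 1.6 FPKM in young libraries 1 to 5. One library of each age, old library 1 and young library 4, stood at the top. The mean was 2.10 ± 0.759 FPKM in old CMs and 1.99 ± 0.775 FPKM in young CMs (SD, n = 5 each), a log2 difference of 0.05 (95% interval -0.38 to 0.49, standard error 0.20, limma adjusted p = 0.919; exact permutation p = 0.857). The sign of this small difference depended on single libraries. It was -0.06 without old library 1 and 0.19 without young library 4.

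Old library 1 and young library 4 were also the libraries with the most endothelial marker RNA. The summed FPKM of 12 endothelial markers was 407 in old library 1 and 382 in young library 4, against 175 to 274 in the other 8 libraries. All 12 markers had a mean of at least 1 FPKM, so some endothelial RNA was present in every library after bead removal. None of the 12 was called between the ages. With the mean log2(FPKM + 1) of these markers as a covariate, the Ednrb difference was 0.03, and the Edn3 difference was 1.24 (limma adjusted p = 0.0015). Of these 2 libraries, old library 1 had the lowest Edn3 value of its age, 1.95 FPKM, and young library 4 the highest of its age, 0.778 FPKM. They also had the highest fibroblast marker sums of their ages, 140.7 and 140.6 FPKM. The same held for leukocyte (45.6 and 67.42 FPKM), mesothelial (7.054 and 7.821 FPKM) and Schwann and neural markers (1.775 and 2.395 FPKM). By these sums, it did not hold at both ages for mural, atrial, lymphatic and endocardial, or red blood cell markers. By the mean log2(FPKM + 1) of a list, however, both libraries were also the highest of their ages for 2 of these. The values were 3.15 and 3.285 for mural markers, and 1.797 and 1.765 for lymphatic and endocardial markers. Which of these cell types goes with the Ednrb values was not tested.

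**Figure D2:**
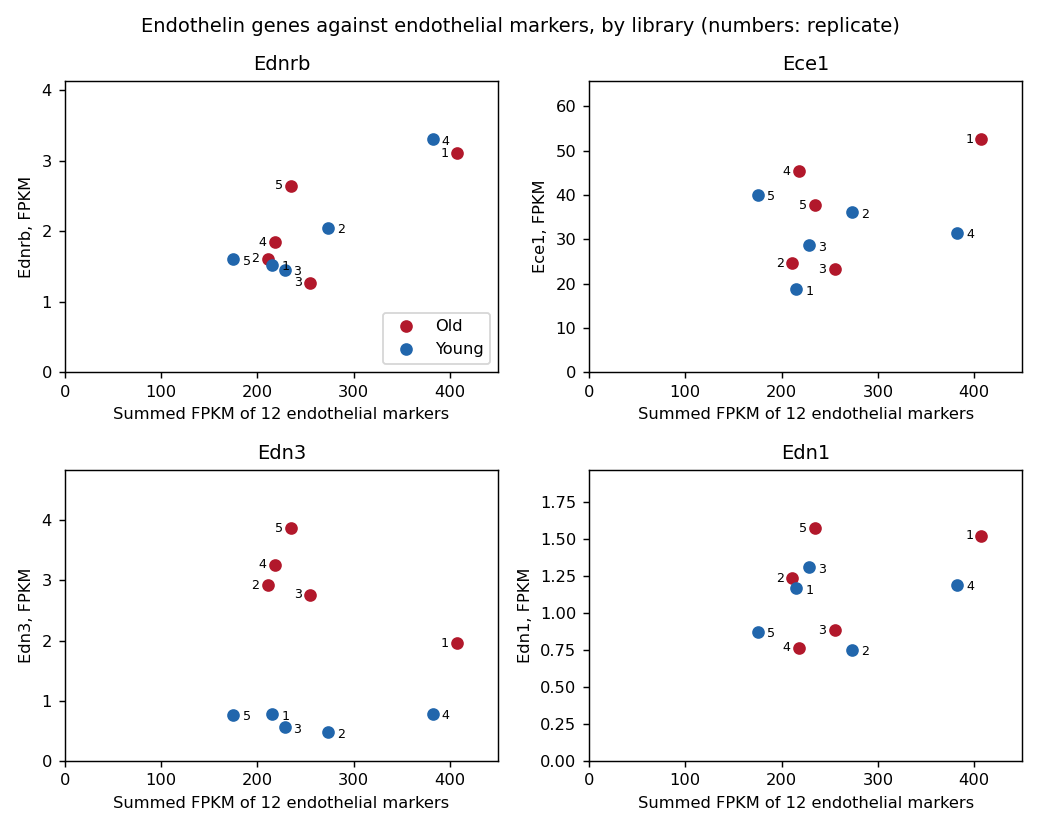
FPKM of Ednrb, Ece1, Edn3 and Edn1 (y axes, from 0) against the summed FPKM of 12 endothelial markers (x axis) in old (red) and young (blue) CM libraries, 1 point per library with its replicate number. The Ednrb values of 3.11 FPKM in old library 1 and 3.30 FPKM in young library 4 stand above the rest at the right, whereas Edn3 separates by age across the whole range of the markers.

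The balance of the receptors overlapped between the ages. The ratio of Ednra to Ednrb was 2.52 at the lowest, 4.47 at the median and 6.64 at the highest in old libraries, and 2.64, 5.50 and 5.88 in young libraries. Ednra made up 71.6% to 86.9% of the summed receptor FPKM in old CMs and 72.5% to 85.5% in young CMs. Set against the ligands, the summed receptor FPKM was 1.89 to 3.12 times the summed ligand FPKM in old CMs and 5.04 to 8.68 times in young CMs. The summed receptor FPKM itself, 9.61 to 10.9 in old CMs and 9.42 to 12 in young CMs, overlapped.

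Ece1 encodes the converting enzyme held to produce most mature endothelin, a membrane-bound zinc protease. The gene (ENSMUSG00000057530) spans chr4:137418152-137521144 on the plus strand and has 5 annotated transcripts. Ece1 had 52.6, 24.6, 23.3, 45.4 and 37.7 FPKM in old libraries 1 to 5, against 18.7, 36.1, 28.6, 31.4 and 40.0 FPKM in young libraries 1 to 5. The libraries of each age were widely spread, and their ranges overlapped. The mean was 36.7 ± 12.8 FPKM in old CMs and 31.0 ± 8.13 FPKM in young CMs (SD, n = 5 each), a log2 difference of 0.21 (95% interval -0.36 to 0.78, standard error 0.26, limma adjusted p = 0.70; exact permutation p = 0.405). This value rested on single libraries, from 0.05 without young library 1, 0.07 without old library 1 and 0.12 without old library 4 to 0.33 without old library 2 and 0.35 without old library 3, and array weights gave 0.02. Ece1 was the highest of the 6 genes in every library, between the 87.1st and the 95.4th percentile by FPKM of all protein-coding genes listed, yet its interval was the widest.

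Ece2 encodes the related enzyme that works best at the acidic pH of vesicles inside the cell. The gene (ENSMUSG00000022842) spans chr16:20611666-20646558 on the plus strand and has 11 annotated transcripts. Ece2 had 3.43, 3.05, 4.06, 3.98 and 3.85 FPKM in old libraries 1 to 5, against 5.64, 3.74, 3.42, 4.01 and 4.0 FPKM in young libraries 1 to 5. Young library 1 stood above the other 9, which lay between 3.05 and 4.06 FPKM. The mean was 3.67 ± 0.424 FPKM in old CMs and 4.16 ± 0.858 FPKM in young CMs (SD, n = 5 each), a log2 difference of -0.13 (95% interval -0.37 to 0.11, standard error 0.11, limma adjusted p = 0.539; exact permutation p = 0.341). Without young library 1 it was -0.04, and without old library 2 it was -0.08. The ratio of Ece1 to Ece2 averaged 10.1 ± 3.61 in old libraries and 7.83 ± 2.67 in young libraries (SD, n = 5 each). Camk2n2, which overlaps Ece2 on the opposite strand, reached at most 0.714 FPKM in old CMs and 0.694 FPKM in young CMs.

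**Figure D3:**
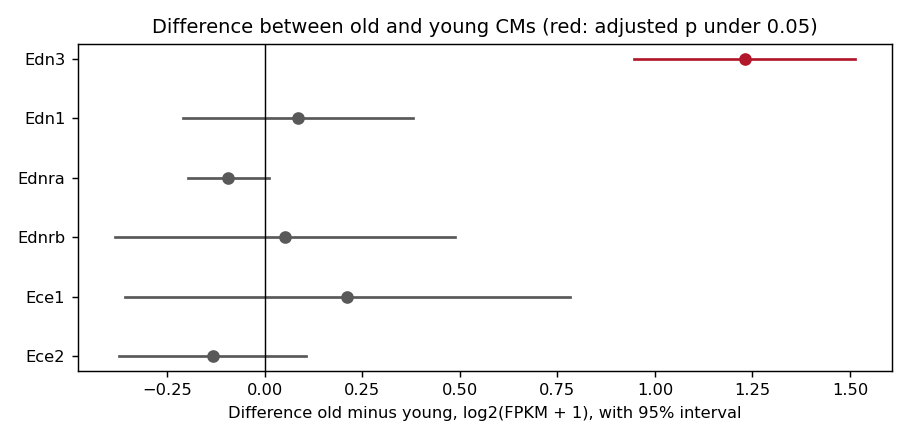
Difference between old and young CMs in log2(FPKM + 1) (x axis) for the 6 genes, ligands at the top, then receptors and converting enzymes; points are limma estimates, lines are 95% intervals, and red marks an adjusted p under 0.05. The interval of Edn3, 0.95 to 1.51, lies wholly above 0 and apart from those of the other 5 genes, which all include 0.

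By level, since FPKM are scaled by transcript length, the order in old CMs was Ece1, Ednra, Ece2, Edn3, Ednrb and Edn1. In young CMs it was Ece1, Ednra, Ece2, Ednrb, Edn1 and Edn3. Edn3 was thus the lowest of the 6 genes in young CMs and stood above Ednrb and Edn1 in old CMs, and the remaining 5 genes kept their order. In old CMs the neighbours from Ece2 downwards were not separated, as the ranges of Ece2 and Edn3, of Edn3 and Ednrb, and of Ednrb and Edn1 overlapped. In young CMs only Edn1 and Edn3 had overlapping ranges.

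For each of the 6 genes, the 3 protein-coding genes with the most similar pattern over the 10 libraries were sought by Pearson's r of log2(FPKM + 1), as a description without a test. Edn3 was most like Amy1, an amylase gene (r = 0.980), Cdh22, a cadherin gene (r = 0.976), and Tac1, the precursor of substance P (r = 0.968). These 3 genes shared the higher level in old CMs. That follows from how they were chosen, since r spanned both ages and Edn3 was split by age. Cdh22 averaged 2.01 FPKM in old CMs and 0.554 FPKM in young CMs, and Tac1 averaged 3.54 FPKM in old CMs and 1.87 FPKM in young CMs. Ednrb was most like Fam117b (r = 0.969), Pgm1 (r = 0.964) and Pip4k2a (r = 0.956), and Edn1 most like Mis12 (r = 0.930), Unkl (r = 0.902) and Gstm6 (r = 0.882). Ednra was most like Rragd (r = 0.929) and Atpaf2 (r = 0.891). Ece1 was most like Ttbk2 (r = 0.887), Pter (r = 0.874) and Dcp2 (r = 0.865), and Ece2 most like Pgam1 (r = 0.928), Hnrnph3 (r = 0.921) and Sdhaf1 (r = 0.920). These values of r are the highest among 10573 candidate genes over only 10 libraries, and the genes share each library and its depth. No gene appeared among the 3 for more than 1 of the 6.

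A further 60 genes of the pathway were grouped by role, and 49 of the 60 were tested. One was higher and 1 was lower in old CMs by limma, together 4.08% against 1.78% of all features, and 21 lay above 0 against 28 below, with a median log2 difference of -0.0256. Across all features, 31.3% lay above 0 and 68.7% below. Without the adjustment, 14 of the 49 had p under 0.05, against 20.9% of all features. These lists and the 6 genes were chosen with earlier results of these libraries known.

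Of 12 genes of ligand maturation and breakdown, 6 were tested, 1 was called by limma, as lower, and the median log2 difference was -0.0188. An unadjusted p under 0.05 was reached by 2, the called gene and Mme, which is named after its values were seen. Mme had a higher mean in old CMs, with a log2 difference of 0.21 (limma adjusted p = 0.218). The called gene was Furin, the proprotein convertase that can cut the endothelin precursor to big endothelin. Furin had 24.2, 25.9, 23.7, 22.6 and 22.8 FPKM in old libraries 1 to 5, against 31.4, 29.8, 30.0, 30.9 and 31.9 FPKM in young libraries 1 to 5. All 5 old libraries lay below all 5 young libraries, a pattern that 5.72% of all features shared. The mean was 23.8 ± 1.32 FPKM in old CMs and 30.8 ± 0.877 FPKM in young CMs (SD, n = 5 each), a log2 difference of -0.36 (limma adjusted p = 0.00531, standard error 0.04). Low members of this list are named here after their values were seen. Kel, whose protein can convert big endothelin-3 to endothelin-3, was listed at 0 in 10 of 10 libraries, and Cma1, a mast cell chymase, was listed at 0 in 7 of 10.

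Of 20 genes of receptor coupling (G proteins, phospholipases C, protein kinases C, IP3 receptors and further kinases and GTPases), 17 were tested and none was called by limma, although 3 had an unadjusted p under 0.05. The median log2 difference was -0.0362. The smallest p-values belonged to Rock2, a serine/threonine kinase that promotes contraction, with a log2 difference of -0.19 (limma adjusted p = 0.0973), and to Gna11, a Gq-family α subunit, with -0.14 (limma adjusted p = 0.19). Rock2 averaged 14.1 ± 0.854 FPKM in old CMs and 16.2 ± 0.891 FPKM in young CMs, and Gna11 17.1 ± 0.982 FPKM in old CMs and 19.0 ± 1.30 FPKM in young CMs (SD, n = 5 each).

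All 8 genes of receptor desensitisation were tested, and none was called by limma, although 4 had an unadjusted p under 0.05. The median log2 difference was 0.00513. Arrb1, β-arrestin 1, had 3.07, 2.98, 3.08, 2.64 and 3.95 FPKM in old libraries 1 to 5, against 2.60, 2.53, 1.72, 2.57 and 1.66 FPKM in young libraries 1 to 5. All 5 old libraries lay above the young ones, a pattern that 1.19% of all features shared. Old library 4 did so by a small margin. The log2 difference was 0.37 with an adjusted p of 0.119 from limma. Grk5, a kinase that phosphorylates activated receptors, had a log2 difference of 0.28 (limma adjusted p = 0.161). The other 2 of the 4 had lower means in old CMs and are named after their values were seen, Rgs2, a regulator of G protein signalling, with a log2 difference of -0.30 (limma adjusted p = 0.167), and Adrbk1, another receptor kinase, with -0.17 (limma adjusted p = 0.206).

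All 8 hypertrophic target genes were tested, and 1 was called, as higher in old CMs, and the log2 differences of the 8 had a median of 0.162. Of the 4 with an unadjusted p under 0.05, 2 had higher and 2 had lower means in old CMs. The lower ones, named after their values were seen, were the immediate early genes Jun, with a log2 difference of -0.81 (limma adjusted p = 0.0924), and Fos, with -0.97 (limma adjusted p = 0.116). Besides the called gene, the higher one was the natriuretic peptide gene Nppb, with 0.76 (limma adjusted p = 0.176), also named after its values were seen. The called gene was Ankrd1, a stress-responsive sarcomere and nuclear protein gene. Ankrd1 had 847, 900, 1110, 768 and 654 FPKM in old libraries 1 to 5, against 616, 358, 286, 381 and 358 FPKM in young libraries 1 to 5. The ages did not overlap, although young library 1 came close to old library 5. The mean was 856 ± 170 FPKM in old CMs and 400 ± 126 FPKM in young CMs (SD, n = 5 each), a log2 difference of 1.12 (limma adjusted p = 0.0284, standard error 0.20). This call was lost when old library 1, 2, 3 or 4 or young library 2, 3 or 5 was left out, with adjusted p-values of 0.0574 to 0.08 and differences of 1.01 to 1.16. It was kept without old library 5, young library 1 or young library 4. It was also lost without the filter on low values (limma adjusted p = 0.0518) and without young library 4 and old library 1 together (limma adjusted p = 0.103).

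Of 12 transcription factors linked to endothelin genes, 10 were tested and none was called by limma, although 1 had an unadjusted p under 0.05. The median log2 difference was -0.0519. Hif1a, the hypoxia-responsive factor, had a log2 difference of 0.22 (limma adjusted p = 0.169), with 13.1 ± 1.40 FPKM in old CMs and 11.1 ± 1.16 FPKM in young CMs (SD, n = 5 each). Klf2, a factor of endothelial cells under blood flow, had a log2 difference of -0.36 (limma adjusted p = 0.288), with wide spreads at both ages.

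**Figure D4:**
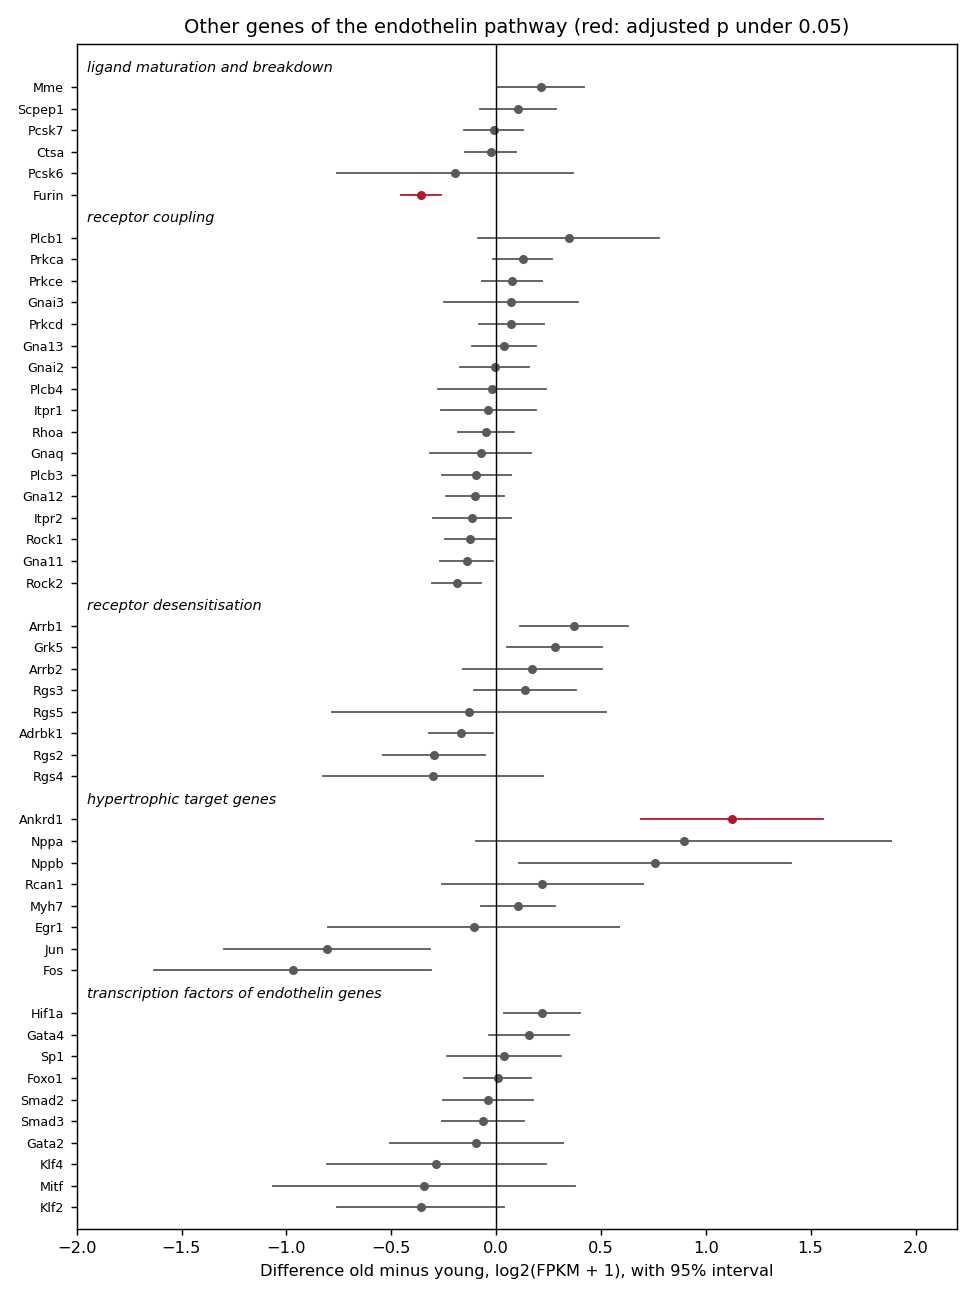
Difference between old and young CMs in log2(FPKM + 1) (x axis) for the 49 tested genes of the pathway lists, grouped by role; points are limma estimates, lines are 95% intervals, and red marks an adjusted p under 0.05. Ankrd1, at 1.12, and Furin, at -0.36, are the 2 genes marked red, and no gene of receptor coupling is marked.

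The endothelin receptors were also set beside 8 other Gq-coupled receptors of CMs, of which 5 were tested and none was called by limma, although 1 had an unadjusted p under 0.05. Their median log2 difference was 0.107. Agtr1a, the angiotensin II type 1a receptor, had 18.1 to 20.4 FPKM in old CMs and 12.9 to 18.3 FPKM in young CMs, a log2 difference of 0.31 (limma adjusted p = 0.0924). Adra1b, an α1-adrenergic receptor, averaged 13.7 ± 1.81 FPKM in old CMs and 15.7 ± 1.83 FPKM in young CMs (SD, n = 5 each), a log2 difference of -0.19 (limma adjusted p = 0.288). The level of Ednra, per transcript length, was below that of Agtr1a and Adra1b at both ages. The other receptors of this list are named after their values were seen. Mean Ednra was also below P2ry2 (11.6 FPKM in old and 10.8 FPKM in young CMs). It was above Adra1a (7.74 and 7.10 FPKM) and F2r (5.87 and 4.98 FPKM). P2ry6, Htr2b and Ptgfr, which were not tested, reached at most 0.625, 0.0351 and 1.01 FPKM.

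The identity of the cells was checked with markers. All 9 ventricular CM markers had a mean of at least 1 FPKM, with a sum of 32000 to 36500 FPKM in old libraries and 34200 to 38500 FPKM in young libraries. The sums for other cell types were far lower, for instance 49.5 to 141 FPKM in old and 52.6 to 141 FPKM in young libraries for 8 fibroblast markers, 84.5 to 102 FPKM in old and 91.6 to 125 FPKM in young libraries for 8 mural markers, and 27.5 to 45.6 FPKM in old and 23.1 to 67.4 FPKM in young libraries for 10 leukocyte markers. No marker of any list was at 0 in every library. Schwann and neural markers, of interest because Edn3 acts in neural crest, summed to 1.13 to 1.77 FPKM in old and 1.11 to 2.39 FPKM in young libraries, and 0 of 6 reached a mean of 1 FPKM. The 6 atrial CM markers were highest in old library 5, at 237 FPKM, which also had the highest Edn3 value, against 31.8 to 87.4 FPKM in the other old libraries and 20.5 to 120 FPKM in young libraries. Young library 4 likewise had the highest atrial sum (120 FPKM) and the highest Edn3 value (0.778 FPKM) of its age. Old library 3, next in atrial sum among old libraries, had 2.76 FPKM of Edn3, below old libraries 2, 4 and 5. Whether atrial CMs go with the Edn3 values was not tested. Without old library 5 the Edn3 difference was 1.15 (limma adjusted p = 0.00405). The sums of 5 lymphatic and endocardial markers were 13.8 to 16.8 FPKM in old and 11.1 to 14.9 FPKM in young libraries, and of 5 mesothelial markers 3.54 to 7.05 FPKM in old and 2.88 to 7.82 FPKM in young libraries. Of the lymphatic and endocardial list, 1 of 3 tested markers, Npr3, was higher in old CMs by a log2 difference of 0.75 (limma adjusted p = 0.0134), and its part in the Edn3 result was not tested. Red blood cell markers summed to 2.28 to 9.70 FPKM in old and 4.22 to 42.5 FPKM in young libraries.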

How the data were processed

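Paired-end reads of 10 CM libraries, run on 1 flow cell per the labels, were aligned by the authors to mm9 with TopHat, and the deposited FPKM per gene were determined with Cufflinks. The depth is not stated; low FPKM values put it at roughly 24100000 to 31900000 fragments per library. Total FPKM ranged from 1155614 to 3289461, so libraries do not sum alike. The authors' deposited DESeq2 comparison (fold changes, p-values) was not used. From the FPKM table, 1 stray header line was removed. Features averaging 1 FPKM or more went into a two-sided limma fit (version 3.58.1 in R 4.3.3; lmFit, eBayes with trend) on log2(FPKM + 1) without covariates, since no counts per library were used. Exact permutation tests covered all 252 arrangements. Sequences were read with Biopython 1.88 from GENCODE vM1 transcripts and checked against the genome. The members and lists were chosen with earlier results of these data known, and the study itself names Edn3 for these CMs. Named genes were all 6 members, the called genes of each list or else the 2 with the smallest p, and the 3 most similar genes per member, of which 1 is not reported here. Alternatives were another pseudocount, filter, scaling, eBayes or weighting, a replicate block, an endothelial covariate, and libraries left out.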

Additional observations from a re-analysis of the deposited data

Results flagged for a closer look

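For the 6 endothelin genes and 10 further named genes, each age was screened for a single library far from the other 4, by the gap to its nearest neighbour as a share of the range. Of 32 groups, 3 exceeded Dixon's critical value of 0.71, where chance gives about 1 in 20. Ece2 had 5.64 FPKM in young library 1, and the next highest young library had 4.01 FPKM, a gap of 0.736 of the range. Grk5 had 8.63 FPKM in young library 4, and the next highest young library had 6.67 FPKM, a gap of 0.738 of the range. Ankrd1 had 616 FPKM in young library 1, and the next highest young library had 381 FPKM, a gap of 0.711 of the range. The Edn3 libraries of neither age exceeded the value.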

How the results depend on the processing

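Edn3 stayed higher in old CMs and past the threshold under every alternative that gave it a value, with log2 differences of 1.23 to 1.98 (the highest with a pseudocount of 0.1) and adjusted p-values from limma of 0.000457 to 0.0375, and with 1 library left out 1.15 to 1.33 (adjusted p of 0.000712 to 0.00843). Edn1, Ednra, Ednrb, Ece1 and Ece2 stayed uncalled throughout. The sign of Ednrb changed in 4 of 10 fits with 1 library left out, from -0.0587 (without old library 1) to 0.19 (without young library 4). With a minimum of 5 FPKM, Ednra and Ece1 alone of the 6 genes had a value. The 220 features called became 118 with median-ratio scaling (93 higher and 25 lower) and 49 without young library 4 and old library 1. With any 1 library left out they were 33 (without old library 3) to 146 (without old library 5). The 2 other pathway genes called became 1 without a filter on low values and 1 without young library 4 and old library 1, and 1 to 3 with 1 library left out.

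Same-numbered libraries did not deviate together strongly, with correlations of -0.155 to 0.0618, 0 of 5 over 0.1. Such correlations cannot settle whether the numbers pair the libraries, and the labels do not say. With the replicate number as a block, 26 features and 0 of the other pathway genes were called (Furin adjusted p = 0.105, Ankrd1 0.13), and Edn3 kept its call (adjusted p = 0.0375). The cause of these changes was not tested. Precision is limited by 5 libraries per age and, for Edn1 and Edn3 in young CMs, by about 46 to 83 fragments per library.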
